A study of Mus musculus with 8 samples.

Results

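The 34 genes described here make, modify, sense or export sterols and fatty acids. They were chosen by gene symbol, and all 34 were found among the 45777 genes of the deposited expression table. All 34 also passed the filter on low counts that left 17975 genes for testing. By role they comprise 7 genes of the mevalonate and isoprenoid steps, 11 of the steps from squalene to cholesterol, 6 regulators of SREBP with a sterol carrier, 7 genes of fatty acid synthesis, desaturation and elongation, and 3 targets of the oxysterol receptor LXR. Per the labels, RNA came from primary hepatic stellate cells, liver cells that hold vitamin A and turn into matrix-producing myofibroblasts when activated. They were isolated from male wild-type C57BL/6 mice of an age not given in the sources used here, and transfected during activation with a control siRNA (siControl, 4 libraries) or an siRNA against PAK4, a p21-activated kinase (siPAK4, 4 libraries). All 8 libraries carry the same batch label. The labels do not say whether replicates came from separate animals or cultures, so p-values measure the spread between these libraries, which may be technical. The siRNA sequence and the number of siRNAs per target are not given either.

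Cells build cholesterol from acetyl-CoA through mevalonate, farnesyl diphosphate, squalene and lanosterol, and build fatty acids from the same acetyl-CoA through malonyl-CoA. SREBP transcription factors drive both routes: SCAP escorts them from the endoplasmic reticulum for cleavage, INSIG proteins hold them there when sterols are plentiful, and SREBP-2 is best known for the sterol genes and SREBP-1 for the fatty acid genes. LXR responds to oxysterols and raises cholesterol efflux pumps. In stellate cells, lipid stores are known to shrink as the cells activate.

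Counts summed to between 55728583 and 61535063 per library. The targeted gene, Pak4, was at 16.2 to 18.6 CPM (counts scaled to a common TMM-adjusted library size) in siControl and at 5.17 to 7.72 CPM in siPAK4. With edgeR's quasi-likelihood test and p-values adjusted over the 17975 genes by Benjamini-Hochberg (called below 0.05), 26.9% of genes were called, 14.5% lower and 12.4% higher with siPAK4. The split of calls depended on scaling: 46.1% of them were higher by TMM and 67.6% with library totals alone (3875 higher and 1860 lower). On the second principal component (13.4% of the variance) siPAK4 replicate 3 stood apart from the other libraries.

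With siPAK4, 12 of the 34 members fell, 2 rose and 20 did not pass the test. That is 35.3% lower, against 14.5% of all tested genes, and 5.88% higher, against 12.4%. The median log2 fold change (siPAK4 over siControl) of the members was −0.14, against 0.0052 for all tested genes, and 29 of 34 were below 0 (25 with library totals), against 49.2% of all tested genes. With library totals the same 12 and 2 members were called, the members' median was −0.049 against 0.094 for all tested genes, and 10.3% of all tested genes were lower and 21.6% higher. On log2(FPKM + 1) the medians were −0.057 and 0.049, and 10 members were lower. By role, 0 of 7 mevalonate and isoprenoid genes, 6 of 11 genes from squalene to cholesterol, 2 of 6 regulators and carriers, 4 of 7 fatty acid genes and 0 of 3 LXR targets were lower. The stearoyl-CoA desaturase genes Scd1 (−1.01) and Scd2 (−0.89), the transcription factor gene Srebf2 (−0.71) and the sterol reductase gene Dhcr7 (−0.71) had the lowest log2 fold changes of the members.

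**Figure D1:**
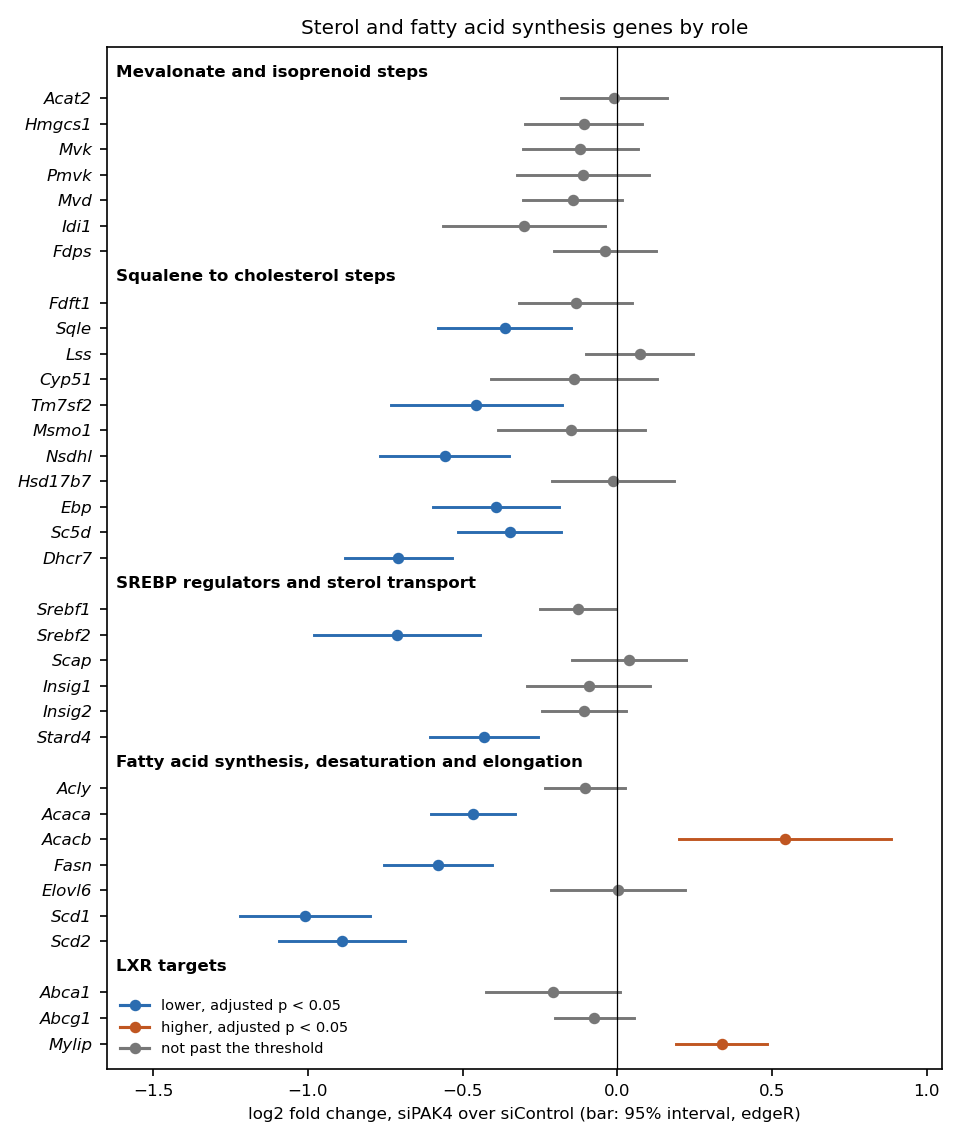
Log2 fold change of each of the 34 members (x axis, siPAK4 over siControl, points) with its 95% interval from edgeR (bars), grouped by role. The 12 lower genes are blue, the 2 higher genes orange and the 20 that did not pass grey; the 7 mevalonate and isoprenoid genes are all grey, and Scd1 and Scd2 lie farthest to the left.

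Expression per transcript length, in TPM (transcript abundance per length, as deposited by the authors), differed widely among the members. In siControl the level was 322 ± 42.8 TPM for Scd2, 261 ± 14.3 for the efflux pump gene Abca1, 183 ± 8.54 for the farnesyl diphosphate synthase gene Fdps and 174 ± 8.63 for the citrate lyase gene Acly (SD, n = 4). The least expressed member was Acacb, which encodes the mitochondrial acetyl-CoA carboxylase, at 0.562 ± 0.0859 TPM. In siPAK4 the order of means at the top was Abca1 (233 ± 43.0 TPM), Fdps (183 ± 14.5), Scd2 (178 ± 14.8) and Acly (166 ± 4.54). The ranges of mean ± SD of these last 3 overlap, and that of Abca1 overlaps those of Fdps and Scd2. In siPAK4 replicate 3, Fdps (200 TPM) exceeded Abca1 (171 TPM). Scd2 was thus the most abundant member in siControl and not in siPAK4.

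None of the 7 genes that carry acetyl-CoA to farnesyl diphosphate passed the test, though all 7 log2 fold changes were below 0. With so few genes, 0 of 7 lower is near the 14.5% of all tested genes. Hmgcs1, the HMG-CoA synthase gene at the entry of the route (NCBI gene 208715, mm10 chromosome 13, 119690351 to 119708260), had 186, 156, 177 and 150.4 CPM in siControl replicates 1 to 4 and 137, 156, 177 and 151 CPM in siPAK4 replicates 1 to 4. The groups overlapped almost fully (log2 fold change −0.11, 95% interval −0.30 to 0.081, adjusted p = 0.40). The thiolase gene Acat2 (−0.01), the mevalonate kinase gene Mvk (−0.12), the phosphomevalonate kinase gene Pmvk (−0.11), the decarboxylase gene Mvd (−0.14) and Fdps (−0.04) had adjusted p from 0.18 to 0.95. Idi1, the isopentenyl diphosphate isomerase gene, came closest. Its level was 68.7, 53.4, 65.6 and 52.4 CPM in siControl and 42.9, 48.0, 60.04 and 43.7 CPM in siPAK4, where the value of replicate 3 lies inside the siControl range (−0.30, 95% interval −0.56 to −0.041, adjusted p = 0.084). Without siPAK4 replicate 3, Idi1 (−0.42, adjusted p = 0.0050) and Mvd (−0.21, adjusted p = 0.026) were called lower.

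The second stretch of the route, from squalene to cholesterol, held the 6 sterol enzyme genes that fell (54.5% of its 11 genes, against 14.5% of all tested genes). A difference between the 2 stretches was not tested. Dhcr7, which encodes the reductase that yields cholesterol itself (NCBI gene 13360, chromosome 7, 143823167 to 143848410), had 21.0, 21.1, 19.1 and 17.7 CPM in siControl replicates 1 to 4 and 11.7, 11.5, 12.1 and 13.0 CPM in siPAK4 replicates 1 to 4. Every siPAK4 library was below every siControl library, and the siPAK4 values were tightly grouped (log2 fold change −0.71, SE 0.079, adjusted p = 6.7e-05). Nsdhl, an X-linked dehydrogenase gene of sterol demethylation (chromosome X, 72918521 to 72958528), had 27.5, 21.8, 22.8 and 21.1 CPM in siControl and 14.1, 15.4, 17.2 and 16.7 CPM in siPAK4. Those groups did not overlap either (−0.56, SE 0.095, adjusted p = 0.0013). Groups without overlap, with siPAK4 below, were found for 10 of the 34 members, against 14.8% of all tested genes, and with siPAK4 above for 1 (28.8% of all tested genes did not overlap in either direction).

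The other 4 falls in this stretch were smaller or noisier. Sc5d, a sterol desaturase gene, had 100.2, 86.0, 98.7 and 83.1 CPM in siControl and 65.8, 71.6, 79.1 and 72.6 CPM in siPAK4, with no overlap (−0.35, adjusted p = 0.0060). It was not called on FPKM or TPM (log2 values from −0.20 to −0.26, adjusted p from 0.063 to 0.11). Tm7sf2, a sterol reductase gene, was weakly expressed, with 8.65, 8.97, 9.86 and 9.17 CPM in siControl and 6.48, 5.19, 8.27 and 6.79 CPM in siPAK4 (−0.46, adjusted p = 0.020, but 0.061 without siControl replicate 3). Ebp, the sterol isomerase gene, had 34.03, 39.8, 38.5 and 42.3 CPM in siControl and 29.4, 27.7, 34.6 and 26.2 CPM in siPAK4. Its groups overlap only through siPAK4 replicate 3, which exceeded the lowest siControl library (−0.39, adjusted p = 0.0092).

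Sqle encodes squalene epoxidase, a rate-controlling step. Its level was 77.9, 69.1, 73.5 and 65.1 CPM in siControl and 45.6, 54.7, 65.5 and 56.1 CPM in siPAK4, and here too replicate 3 was the siPAK4 library that reached the siControl range (−0.36, adjusted p = 0.017). The call was lost without siControl replicate 1 (adjusted p = 0.052) or siControl replicate 3 (adjusted p = 0.050), and on log2(FPKM + 1) (adjusted p = 0.062). The 5 genes of this stretch that did not pass were Fdft1 (squalene synthase, −0.13), Lss (lanosterol synthase, 0.07), Cyp51 (lanosterol demethylase, −0.14), Msmo1 (sterol methyl oxidase, −0.15) and Hsd17b7 (a sterol ketoreductase, −0.01), with adjusted p from 0.27 to 0.94. The value of Fdft1 is uncertain, because its annotated span shares 774 bases with Ctsb, which averaged 5375 CPM in siControl and fell by 0.51 on the log2 scale, and the strand setting of the counting is not given.

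Within each group, many sterol enzyme genes shared their highest and their lowest library. Replicate 3 was the highest of the 4 siPAK4 libraries for 17 of the 18 sterol enzyme genes, and replicate 1 was the lowest for 15 of them. Averaged over these 18 genes, the log2 level relative to the siControl mean was −0.40 in siPAK4 replicate 1, −0.25 in replicate 2, −0.018 in replicate 3 and −0.25 in replicate 4. The small average in replicate 3 combined genes on both sides of the siControl mean: Dhcr7 was at −0.70, Nsdhl at −0.43 and Sc5d at −0.21, while Lss was at 0.24, Cyp51 at 0.19 and Fdps at 0.19. Among siControl libraries the same average ranged from −0.084 to 0.074. There, replicate 1 was the highest for 11 of the 18 genes and replicate 4 the lowest for 12. How often each library was highest or lowest over all tested genes was not counted, so this pattern is not shown to be particular to these genes. For the 7 fatty acid genes replicate 3 did not stand out in this way, at −0.39 against −0.42, −0.35 and −0.27 in replicates 1, 2 and 4. Without siPAK4 replicate 3, 16 members were lower, and the calls gained were Idi1, Mvd, Cyp51 (−0.27, adjusted p = 0.049) and Msmo1 (−0.26, adjusted p = 0.027). Without siPAK4 replicate 1 the members' median log2 fold change was −0.083, with 12 lower.

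**Figure D2:**
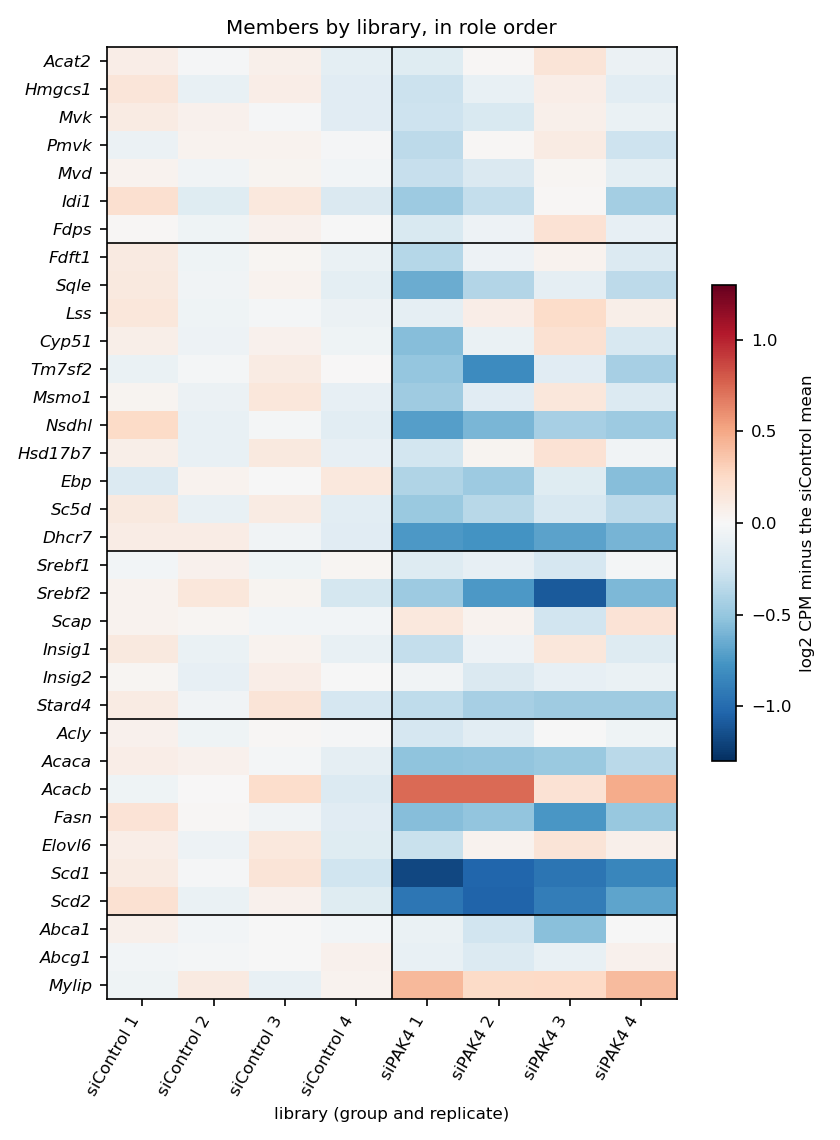
Log2 CPM of each member minus its mean over the 4 siControl libraries (colour, blue lower and red higher), for each of the 8 libraries (columns) and the 34 members in role order (rows, black lines between roles). In the upper 2 blocks, the sterol enzymes, siPAK4 replicate 1 is the bluest and siPAK4 replicate 3 is paler for most genes and red for some, while Dhcr7, Nsdhl, Scd1 and Scd2 are blue in every siPAK4 library.

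Of the 2 SREBP genes, Srebf2 fell and Srebf1 did not pass; their ratio is given with the other paired genes. Srebf2, which encodes SREBP-2 (NCBI gene 20788, chromosome 15, 82147269 to 82205379), had 74.8, 80.1, 74.0 and 61.6 CPM in siControl replicates 1 to 4 and 52.3, 42.9, 33.9 and 48.1 CPM in siPAK4 replicates 1 to 4. All siPAK4 libraries were below all siControl libraries, and replicate 3, the siPAK4 library with the highest sterol enzyme levels, had the lowest Srebf2 (log2 fold change −0.71, SE 0.122, adjusted p = 0.0014). Srebf1, which encodes SREBP-1, had 94.2, 100.4, 92.8 and 98.2 CPM in siControl and 86.0, 89.7, 82.8 and 94.6 CPM in siPAK4. It did not pass (−0.13, 95% interval −0.25 to −0.0039, adjusted p = 0.12).

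The sensors of the same system did not pass. The SREBP escort gene Scap (0.04, adjusted p = 0.78), the anchor gene Insig2 (−0.11, adjusted p = 0.23) and Insig1 (−0.09, adjusted p = 0.51), itself a known SREBP target, had intervals that reached no lower than −0.29. Insig1 had 223, 193, 210.3 and 191 CPM in siControl and 165, 194, 226 and 181 CPM in siPAK4, again with replicate 3 at the top and replicate 1 at the bottom of the siPAK4 group. Stard4, which encodes a cytosolic sterol carrier, fell from 81.1, 72.6, 84.2 and 64.5 CPM to 59.6, 55.6, 54.5 and 54.7 CPM, with no overlap (−0.43, SE 0.080, adjusted p = 0.0021).

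Fatty acid genes held the largest falls, at the desaturation step. Scd1 (NCBI gene 20249, chromosome 19, 44394450 to 44407709) encodes a stearoyl-CoA desaturase, which turns saturated into monounsaturated fatty acids. It had 158, 145, 165 and 122 CPM in siControl replicates 1 to 4 and 64.3, 71.6, 76.1 and 81.2 CPM in siPAK4 replicates 1 to 4 (log2 fold change −1.01, SE 0.096, adjusted p = 2.4e-05). Scd2, its neighbour and close paralog (chromosome 19, 44293676 to 44306864), had 934, 766, 849 and 729.9 CPM in siControl and 426, 397, 439 and 509 CPM in siPAK4 (−0.89, SE 0.093, adjusted p = 4.5e-05). The groups did not overlap for either gene. Reads that match both genes could have been split between them in a way that the sources used here do not describe.

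The enzymes that build the chain itself also fell, in part. Fasn, the fatty acid synthase gene (chromosome 11, 120805958 to 120825166), had 418, 372, 358 and 333 CPM in siControl and 252, 258, 218 and 262.2 CPM in siPAK4 (−0.58, SE 0.080, adjusted p = 0.00029). Acaca, which encodes the cytosolic acetyl-CoA carboxylase that makes malonyl-CoA for synthesis, averaged 102 ± 6.31 CPM in siControl and 73.8 ± 4.21 in siPAK4 (SD, n = 4 each; −0.47, SE 0.062, adjusted p = 0.00023). Neither gene's groups overlapped. The span of Acaca also holds the predicted gene Gm11437, which had too few counts for testing. Acly, which supplies cytosolic acetyl-CoA from citrate, did not pass (358 ± 11.8 against 333 ± 21.0 CPM, −0.10, adjusted p = 0.22), nor did the elongase gene Elovl6 (31.5 ± 2.97 against 31.5 ± 4.08 CPM, 0.0033, adjusted p = 0.98). Without siPAK4 replicate 3, Elovl6 was at −0.055.

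Acacb, the carboxylase whose product restrains mitochondrial fatty acid oxidation, was the only fatty acid member that rose. It was scarce, with 118, 125, 153 and 111 counts in siControl and 214, 217, 152 and 182 counts in siPAK4. In CPM, siPAK4 replicate 3 (2.53) fell below siControl replicate 3 (2.60), so the groups overlapped (0.54, SE 0.157, adjusted p = 0.024). The call was lost when siControl replicate 1, 2 or 4 or siPAK4 replicate 1 or 2 was left out (adjusted p from 0.058 to 0.077).

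**Figure D3:**
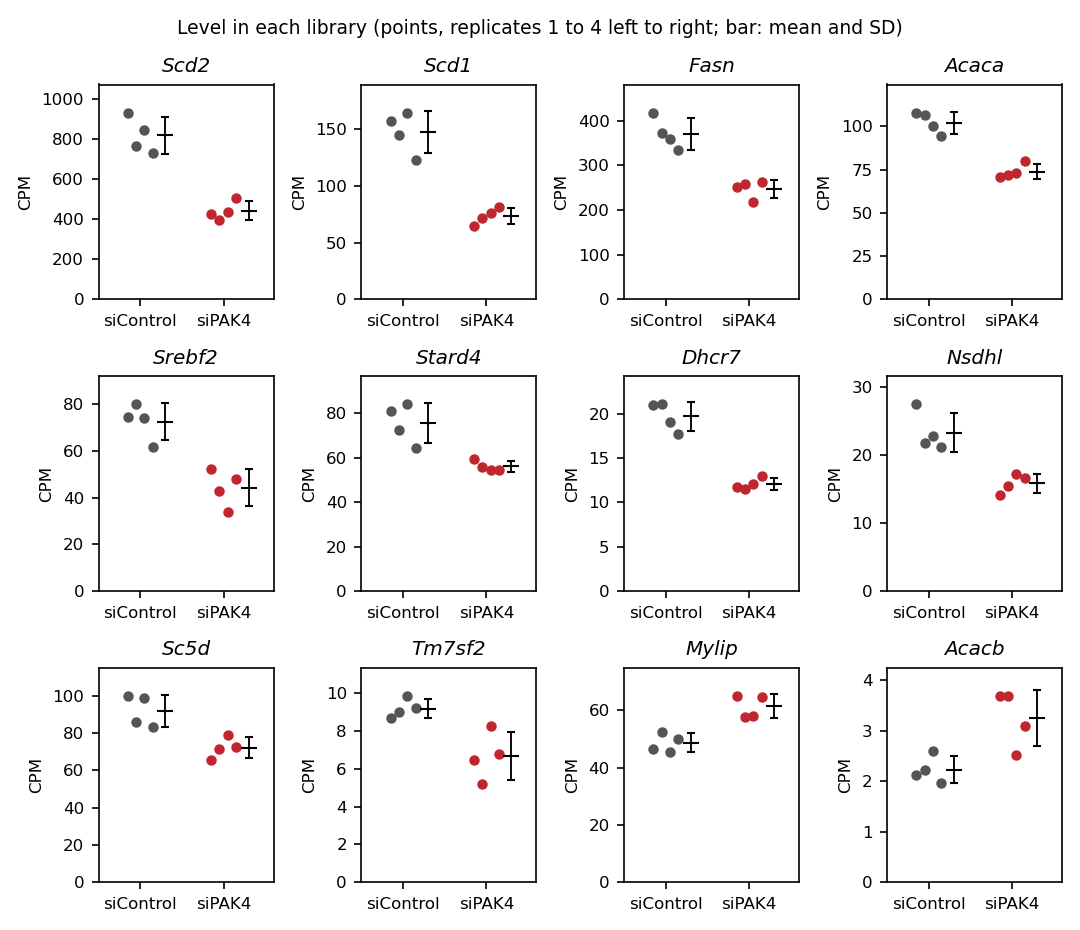
Level in CPM (y axis, from 0) of 12 of the 14 called members in each library; points are replicates 1 to 4 from left to right, and bars give the mean and SD of each group. The siPAK4 points lie below all siControl points for 10 genes, from Scd2 to Tm7sf2, and above them for Mylip, while Acacb overlaps at siPAK4 replicate 3.

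The 3 members placed in the LXR target role did not move as a block. Each member was given 1 role only, so this role need not hold every member that LXR controls. Mylip, which encodes a ubiquitin ligase that sends lipoprotein receptors to degradation (chromosome 13, 45389742 to 45411940), had 46.5, 52.5, 45.3 and 50.05 CPM in siControl and 65.1, 57.6, 58.1 and 64.7 CPM in siPAK4. Every siPAK4 library was above every siControl library (0.34, SE 0.068, adjusted p = 0.0035), which held for 14% of all tested genes. The efflux pump genes did not pass. Abca1 had 1311, 1222, 1246 and 1220 CPM in siControl and 1176, 1052, 858 and 1244 CPM in siPAK4 (−0.21, 95% interval −0.43 to 0.0097, adjusted p = 0.15), and its lowest library was siPAK4 replicate 3. Abcg1 averaged 197 ± 5.598 and 187 ± 12.9 CPM (SD, n = 4 each; −0.07, adjusted p = 0.39).

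Ratios of related genes inside a library do not depend on how libraries are scaled, so 5 pairs were compared by the log2 ratio of their counts, with an exact two-sided permutation test of 4 against 4 libraries. The smallest p this design allows is 0.0286. The log2 ratio of Srebf1 to Srebf2 was 0.33, 0.33, 0.33 and 0.67 in siControl and 0.72, 1.06, 1.29 and 0.98 in siPAK4, a difference of 0.60 (SE 0.146), with all siPAK4 libraries higher. The log2 ratio of Acaca to Acacb was 5.66, 5.57, 5.26 and 5.58 in siControl and 4.26, 4.28, 4.85 and 4.69 in siPAK4, a difference of −1.0 (SE 0.172), with all siPAK4 libraries lower. Both had the smallest possible exact permutation p of 0.0286, and 0.0714 after Benjamini-Hochberg adjustment over the 5 pairs, which misses the threshold. With only 2 of the 5 pairs at that smallest p, no adjusted p could fall below 0.05. The miss was thus set by the number of libraries and pairs. The remaining pairs overlapped: the difference was −0.12 (SE 0.0793, adjusted exact p = 0.333) for Scd1 to Scd2, −0.14 (SE 0.111, adjusted exact p = 0.357) for Abca1 to Abcg1 and 0.0074 (SE 0.122, adjusted exact p = 0.914) for Insig1 to Insig2.

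**Figure D4:**
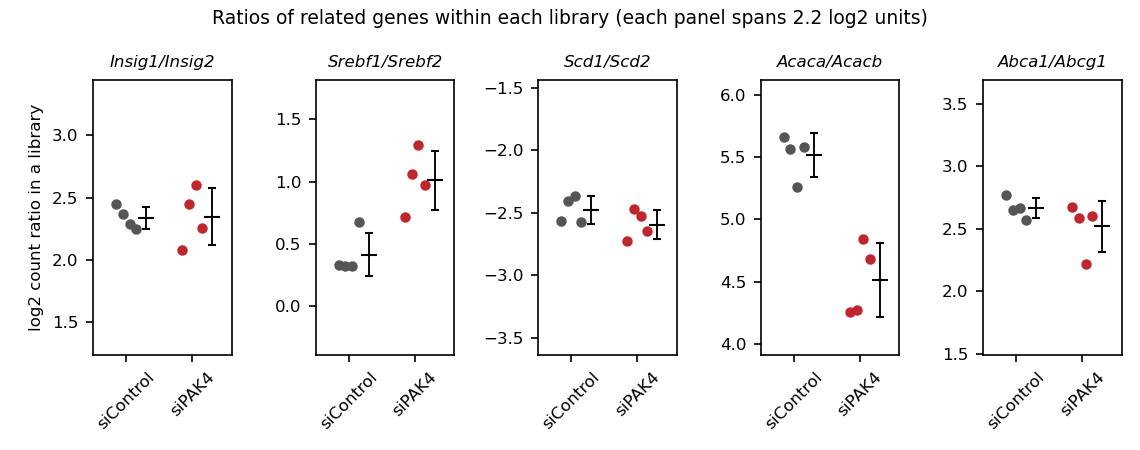
Log2 ratio of the counts of 2 related members in each library (y axis; each panel has its own range of equal height), with points for replicates 1 to 4 and bars for the mean and SD of each group. The groups separate for Srebf1/Srebf2 (siPAK4 higher) and for Acaca/Acacb (siPAK4 lower) and overlap in the other 3 panels.

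Promoter windows from RefSeq (GRCm38.p6, 250 bases before to 50 after each annotated start) were at hand for 27 of the 34 members, 8 of them among the 12 that fell. The CCAAT box, bound by NF-Y, a known partner of SREBP, was searched as CCAAT on both strands, and the sterol regulatory element as TCACNCCAC on both strands. The CCAAT box was present for 22 of the 27 members (81.5%), against 41.1% of all 27025 genes with a window. For each motif, that comparison set includes genes that were not tested here, while all members were tested. Shares among tested genes alone were not counted. It occurred in 7 of the 8 members that fell (87.5%), both that rose and 13 of the 17 that did not pass (76.5%). The sterol element was found in Hmgcs1 alone, 1 of 27 members (3.7%), against 1.44% of all genes, and Hmgcs1 did not pass the test. The LXR element, a pair of direct AGGTCA half-sites 4 bases apart, was in 0 of the 27 members and in 4 genes overall (0.0148%). A match to these letters is a description of the window and does not show binding. Nor does a missing match show that a site is absent, because only these letters and these windows were searched.

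The stretches that follow let the motif be seen in context in members that fell (Fasn, Nsdhl, Srebf2), members that rose (Mylip, Acacb) and the single member with the sterol element (Hmgcs1, chosen after the search). Each is given 5′ to 3′ on the gene's strand with a single match to the motif in capitals. ATTGG is CCAAT read on the opposite strand. Each lies before the start of its RefSeq window and over no exon of the GENCODE annotation of the same build. The starts used for Fasn and Acacb are not the outermost ones: their stretches reach 600 and 19150 bases into the gene spans given by RefSeq. The motif stretch of Dhcr7 overlapped annotated exons and is not shown.
Fasn, chr11:120824567-120824641, minus strand: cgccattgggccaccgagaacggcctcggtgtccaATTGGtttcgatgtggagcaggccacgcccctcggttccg
Nsdhl, chrX:72918466-72918520, plus strand: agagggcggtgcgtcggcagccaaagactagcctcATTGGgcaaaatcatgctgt
Srebf2, chr15:82147099-82147173, plus strand: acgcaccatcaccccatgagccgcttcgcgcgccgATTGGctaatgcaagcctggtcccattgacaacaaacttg
Mylip, chr13:45389640-45389714, plus strand: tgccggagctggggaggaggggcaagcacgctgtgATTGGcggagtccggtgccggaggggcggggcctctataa
Acacb, chr5:114165396-114165470, plus strand: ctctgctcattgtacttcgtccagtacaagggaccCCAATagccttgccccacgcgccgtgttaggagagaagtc
Hmgcs1, chr13:119690179-119690257, plus strand: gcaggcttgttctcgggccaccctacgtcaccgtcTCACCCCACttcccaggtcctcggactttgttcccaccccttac
The motif begins 59 bases before the start in Fasn, 20 in Nsdhl, 135 in Srebf2, 67 in Mylip, 87 in Acacb and 137 in Hmgcs1. The CCAAT motif in capitals is the nearest match before the start in each gene. The Fasn stretch also holds a further ATTGG, left in lower case, and a CCAAT on the gene's own strand that overlaps the capitals.

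Neighbouring steps of the same pathways were read from lists of other genes. Of 19 tested genes of fatty acid synthesis, desaturation and elongation outside the members, 8 fell, 1 rose and 10 missed the threshold (42.1% lower, against 14.5% of all tested genes; median −0.15). Fads2, the desaturase that opens the polyunsaturated route, had 108, 96.7, 92.9 and 92.2 CPM in siControl and 51.1, 56.1, 55.3 and 60.3 CPM in siPAK4 (−0.81, SE 0.0688, adjusted p = 1.1e-05). The gene that rose was Acsl1, an acyl-CoA synthetase gene, from 63.2 ± 8.04 to 138 ± 17.5 CPM (SD, n = 4 each; 1.12, adjusted p = 2e-05). The other 7 that fell were Fads1 (−0.41), Fads3 (−0.40), the reductase gene Tecr (−0.45), Me1 (−0.38), Acsl3 (−0.35), Hsd17b12 (−0.21) and Elovl5 (−0.16), named after their values were seen. Desaturase genes thus fell in both the monounsaturated and the polyunsaturated branch.

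Genes of sterol handling outside synthesis were called in both directions. Of 17 genes of sterol uptake, storage and trafficking, 5 rose, 2 fell and 10 missed the threshold (29.4% higher, against 12.4% of all tested genes). The lipoprotein receptor gene Vldlr rose from 28.1 ± 0.861 to 40.9 ± 1.93 CPM (0.54, adjusted p = 5.7e-05), and Gramd1b, which encodes a sterol transfer protein, fell from 83.6 ± 1.83 to 58.3 ± 5.26 CPM (−0.52, adjusted p = 0.00016). Among 5 tested enzymes of oxysterol and bile acid synthesis, 1 passed (20%, against 26.9% of all tested genes). This gene was Ch25h, which makes an oxysterol known to hold back SREBP processing. It had 19.6, 17.1, 18.9 and 17.0 CPM in siControl and 32.6, 32.4, 31.7 and 30.3 CPM in siPAK4 (0.81, SE 0.0672, adjusted p = 1e-05), with no overlap. Oxysterol levels were not measured, and a link of Ch25h to the members' changes or to the interferon response was not tested.

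The machinery that cleaves SREBP or degrades sterol enzymes was read from 12 genes, of which 1 rose and 1 fell (16.7% called, against 26.9% of all tested genes): Trim21 (0.83, adjusted p = 2e-05), also known as interferon-induced, and Vcp (−0.25, adjusted p = 0.0052), which extracts proteins for degradation. In the isoprenoid branch 2 of 11 genes rose and 1 fell, a share of 27.3% that is near the 26.9% of all tested genes, with adjusted p of 0.030 for the farnesyltransferase subunit gene Fntb (−0.45) and 0.032 for the prenyl protease gene Rce1 (0.23). Of 8 tested genes of LXR and its other targets 3 fell (37.5%, against 14.5% of all tested genes) and 1 rose, led by the phospholipid transfer protein gene Pltp (−1.10, adjusted p = 2.8e-05) and the acyltransferase gene Lpcat3 (−0.37, adjusted p = 0.0015).

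The libraries hold RNA of more than stellate cells, and markers of several cell types moved with the groups. In siControl the endothelial markers summed to more CPM (6079 to 6294) than the stellate cell markers (1588 to 2014). Sums over different genes do not give shares of cells. Which cells the members' RNA came from was not determined. Fewer cells of a type and less RNA per cell cannot be told apart in these bulk samples. Of 11 tested stellate cell markers 6 were lower (54.5%) and 1 higher (9.09%), against 14.5% and 12.4% of all tested genes. Their summed level was 1588 to 2014 CPM in siControl and 988 to 1208 CPM in siPAK4. Their log2 fold changes ran from −1.63 to 0.48, with 6 below 0 and 5 above. The falls included Acta2 (−1.63) and Col1a1 (−1.42). The retinol esterification gene Lrat, a defining stellate marker, had 0 to 4 counts in siControl and 7 to 22 in siPAK4 and was not tested. Of 11 tested macrophage and Kupffer cell markers 7 were lower (63.6%) and 0 higher, with 1977 to 2407 against 1114 to 1523 CPM. Of 10 endothelial markers 6 were lower (60%) and 2 higher (20%), with 6079 to 6294 against 3543 to 5208 CPM. Of 7 mesothelial markers 5 were lower (71.4%) and 0 higher, with 184 to 240.2 against 64.1 to 99.1 CPM.

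Markers of hepatocytes and adipocytes, cell types known for lipid synthesis, were at low levels, and the hepatocyte markers were higher with siPAK4. Hepatocyte markers summed to 2.21 to 3.61 CPM in siControl and 5.53 to 12.6 CPM in siPAK4. Of 7 tested markers 4 were higher (57.1%, against 12.4% of all tested genes) and 0 lower. Of 6 adipocyte markers only Lipe was tested (0.18, adjusted p = 0.16), Retn and Lep had 0 counts in every library, and Adipoq had 2 counts in a single siPAK4 library. All 10 proliferation genes were lower (median −0.59) and all 10 interferon response genes higher (median 1.96) with siPAK4. The part of cell type makeup, proliferation or the interferon response in the members' changes was not tested.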

How the data were processed

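Polyadenylated RNA of 8 libraries was measured with a stranded mRNA kit, per the labels' protocols. The authors deposited raw read counts, FPKM (per length and depth) and TPM (scaled further to a fixed total) for each gene and library, per the file headers. Per the submitters' processing notes, tools included StringTie 2.1.3b, Bowtie2 2.3.4.1 and HISAT2 2.1.0, with build mm10. How reads were counted, and with which strand setting, is not given in the sources used here. Deposited counts were filtered with filterByExpr (minimum count 10), TMM-scaled and tested with edgeR 4.0.16 (robust quasi-likelihood, R 4.3.3), adjusted over all 17975 tested genes; limma 3.58.1 and DESeq2 1.42.0 served in alternatives. Standard errors derive from the quasi-likelihood F statistic. Ratios used counts + 0.5 and exact permutation tests. The count fits were tested on simulated counts. Depth was 55728583 to 61535063 counts per library. No 2 libraries of a group agreed within sampling noise (chi-square per degree of freedom 13.7 to 74.8). Coordinates and promoters are RefSeq's, GRCm38.p6, counted from 1. Promoter stretches over a GENCODE exon were not printed.

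The members and lists were chosen with earlier results of these data known. All members are named; from each other list, at most 2 genes with the smallest adjusted p, except where stated. Alternatives were other scalings, tools, filters, FPKM or TPM with pseudocounts, a replicate block and leaving out each library.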

Additional observations from a re-analysis of the deposited data

Results flagged for a closer look

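Among 78 sets of 4 libraries (34 members and 5 ratios in each group), 1 had a library far from the others, where chance flags about 1 set in 20. The log2 ratio of Srebf1 to Srebf2 was 0.67 in siControl replicate 4, while the other 3 siControl libraries lay between 0.325 and 0.333, and the lowest siPAK4 value was 0.72.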

How the results depend on the processing

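Across the alternatives all 34 members stayed testable, and of 612 recomputed member values 560 kept direction and side of the threshold, 14 lost the call, 5 gained it and 33 changed sign, the last all for genes not called. The count of lower members, 12, was 12 with RLE size factors, library totals, DESeq2, limma-voom, no filter or a mean of at least 1 CPM, 10 on log2(FPKM + 1) and log2(FPKM + 0.1), 11 on log2(TPM + 1) and 10 to 16 when 1 library was left out. The count of higher members, 2, was 1 on log2(TPM + 1) and 1 to 2 with 1 library left out, since Acacb was lost. All tested genes gave 3543 to 5494 calls with 1 library left out, and 3839 to 5735 otherwise. With library totals the median of all genes moved from 0.0052 to 0.094.

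Sign changes, in the order library totals, log2(FPKM + 1) and log2(FPKM + 0.1), gave Acat2 0.079, 0.077 and 0.081, Fdps 0.049, 0.051 and 0.052, Hsd17b7 0.076, 0.071 and 0.078, and Abcg1 0.013, 0.017 and 0.017. On the FPKM scales Insig2 was at 0.0064 and 0.0069, and on log2(TPM + 1) Acat2 was at 0.025 and Hsd17b7 at 0.022. Elovl6 was at −0.0013 with limma-voom and −0.00078 without a filter. Leaving out 1 library gave −0.073 to 0.037 for Acat2, −0.12 to 0.011 for Fdps, −0.085 to 0.055 for Hsd17b7, −0.013 to 0.12 for Scap and −0.055 to 0.089 for Elovl6. The ratio difference of Insig1 to Insig2 was −0.011 with FPKM + 0.1 and −0.077 to 0.097 with 1 library left out. That of Srebf1 to Srebf2 stayed between 0.50 and 0.69, and that of Acaca to Acacb between −1.11 and −0.91. The cause of these changes was not tested.

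Replicate numbers did not pair the libraries: same-numbered deviations correlated at 0.035, −0.047, 0.104 and −0.037. A replicate block gave 13 lower members (Idi1 was added, adjusted p = 0.039), 2 higher, 4587 calls and Elovl6 at −0.00086. As a block, the ratios allow no exact p below 0.125.

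With 4 libraries a group the intervals of the 20 members that did not pass ran from −0.56 (Idi1) to 0.25 (Lss); called members lay partly in the same range, as Sc5d at −0.35. For scarce genes such as Acacb, counts limit precision.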
